A study of Rattus norvegicus with 12 samples.

Results

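The genes described here are 4 genes of major histocompatibility complex (MHC) class II antigen presentation and 1 macrophage gene in sensory ganglia of the rat. They are Cd74 (ENSRNOG00000018735), RT1-Ba (ENSRNOG00000000451), RT1-Bb (ENSRNOG00000032708), RT1-Da (ENSRNOG00000032844) and Aif1 (ENSRNOG00000000853). They were chosen by their Ensembl identifiers, as 5 of the 32662 identifiers in the deposited tables, and all 5 passed the filter on low counts that left 14554 genes for testing. The tables give identifiers only, so these symbols come with the choice of the genes, and no other identifier is given a name here.

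RNA came from trigeminal ganglia (TG), which serve sensation in the face and head, and from dorsal root ganglia (DRG), which serve the trunk and limbs. All 12 libraries came from 6 naive male Wistar Han rats (R101 to R106) of 10 weeks of age, killed 2 weeks after arrival and perfused with cold saline to clear blood from the tissue. Each rat gave 1 TG and 1 DRG library, so there were 6 libraries per ganglion, and neither group carried a transgene, an injury or a drug beyond the terminal anaesthesia. The labels name neither the spinal levels of the DRG nor a batch, and give no MHC haplotype for these outbred animals.

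MHC class II molecules present peptides from engulfed material to CD4+ T cells. An alpha and a beta chain pair in the endoplasmic reticulum with the invariant chain, which fills the peptide groove and guides the complex to endosomes, where it is replaced by peptide. Macrophages, dendritic cells and B cells carry these molecules, and sensory ganglia contain resident macrophages among the neurons and satellite glia. Transcription of the class II and invariant chain genes depends on the transactivator CIITA, which is recruited to a module of promoter elements known as the X and Y boxes.

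Cd74 encodes the invariant chain. RT1-Ba and RT1-Bb encode the alpha and beta chains of the rat molecule RT1.B, and RT1-Da encodes the alpha chain of RT1.D. Aif1 encodes the calcium-binding protein known as Iba1, widely used to stain macrophages and microglia. In the RefSeq table of the newer assembly GRCr8, RT1-Ba and RT1-Bb are adjacent protein-coding genes on chromosome 20, RT1-Da lies close by, beside RT1-Db2, and Aif1 is on the same chromosome. Cd74 is on chromosome 18, between Rps14 and Tcof1. The counts follow Rnor_6.0, so the gene coordinates of that table are not used here.

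Promoters were available for 4 of the 5 genes in RefSeq on GRCr8, with no entry for Aif1, and those 4 are shown. Whether their letters have a part in the levels measured below was not tested for any of these promoters. Each runs 5′ to 3′ along the strand of the gene, from 250 bases before the annotated start to 50 after it. Capitals mark GCAAC, searched for here as the X core, and ATTGG, searched for as the Y core, on either strand (GTTGC and CCAAT on the other). Other forms of an X or Y box were not searched for. RT1-Da lies at chr20:4515165-4515464 on the plus strand, RT1-Ba at chr20:4576807-4577106 on the plus strand, RT1-Bb at chr20:4604069-4604368 on the minus strand and Cd74 at chr18:56526956-56527255 on the plus strand.
RT1-Da: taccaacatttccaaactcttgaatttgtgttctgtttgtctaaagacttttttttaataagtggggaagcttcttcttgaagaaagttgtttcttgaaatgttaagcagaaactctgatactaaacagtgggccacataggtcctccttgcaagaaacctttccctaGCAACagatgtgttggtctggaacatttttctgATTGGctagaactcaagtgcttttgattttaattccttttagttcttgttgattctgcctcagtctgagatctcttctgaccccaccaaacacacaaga
RT1-Ba: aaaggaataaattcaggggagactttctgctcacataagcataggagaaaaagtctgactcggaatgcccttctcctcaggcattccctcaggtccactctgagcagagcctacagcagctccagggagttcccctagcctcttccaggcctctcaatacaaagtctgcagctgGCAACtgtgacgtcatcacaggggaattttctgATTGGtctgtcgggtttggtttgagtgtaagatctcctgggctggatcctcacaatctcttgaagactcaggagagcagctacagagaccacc
RT1-Bb: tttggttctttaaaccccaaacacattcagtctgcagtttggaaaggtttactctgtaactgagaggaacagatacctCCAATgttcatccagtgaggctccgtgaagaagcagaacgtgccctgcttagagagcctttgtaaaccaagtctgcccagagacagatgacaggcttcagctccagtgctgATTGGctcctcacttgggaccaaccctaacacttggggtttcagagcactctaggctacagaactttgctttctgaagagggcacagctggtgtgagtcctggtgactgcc
Cd74: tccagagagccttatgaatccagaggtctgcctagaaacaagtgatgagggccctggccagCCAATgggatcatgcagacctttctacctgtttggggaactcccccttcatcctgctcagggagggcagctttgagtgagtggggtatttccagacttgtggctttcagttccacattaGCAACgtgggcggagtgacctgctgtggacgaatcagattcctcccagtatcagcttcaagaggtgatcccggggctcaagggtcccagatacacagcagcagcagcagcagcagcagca

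The promoters of both alpha chain genes had the same arrangement. In RT1-Da the X core lay at -82 to -78 from the start and the Y core at -49 to -45, and in RT1-Ba they lay at -76 to -72 and -43 to -39, each pair 28 bases apart. Of 33469 rat promoters of this length, 97 (0.29%) had these cores in this order on the strand of the gene with 20 to 35 bases between them, a range set after the sequences had been seen. RT1-Bb had the Y core letters at -61 to -57, again on the other strand at -172 to -168, and no GCAAC. Cd74 had GCAAC at -70 to -66 and its only Y core letters on the other strand at -189 to -185. Since only fixed strings were searched for, a missing match does not show that an X box is absent. Nor does a match show that the letters are part of an X or Y box. The longer string CTGATTGG (CCAATCAG on the other strand), which contains the Y core, was present in RT1-Da, RT1-Ba and RT1-Bb and in 3.50% of all promoters. The single cores were common, GCAAC being present in 35.1% and ATTGG in 37.5% of promoters. These matches describe letters in the reference and do not show that a factor binds there.

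**Figure D1:**
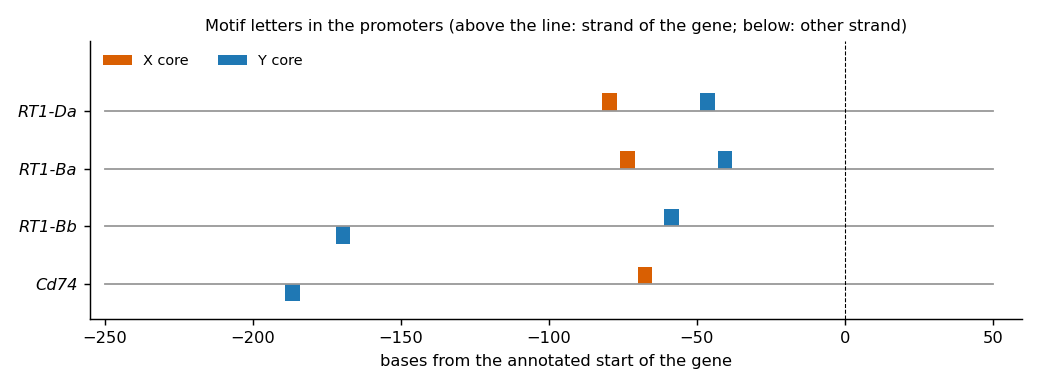
Position of the letters searched for as X core (GCAAC, orange) and Y core (ATTGG, blue) along the promoters of 4 genes. Positions are in bases from the annotated start (dashed line), with bars above the line on the strand of the gene and below it on the other. Other forms of the boxes were not searched for. RT1-Da and RT1-Ba have an X core followed by a Y core 28 bases further on.

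The class II genes and the invariant chain were lower in TG than in DRG in every rat, while no difference was found for Aif1. Estimated over all rats, DRG held 1.73 to 2.05 times as much of the 4 genes, and within single rats 1.19 to 2.87 times as much. The 4 genes passed the test between ganglia and Aif1 did not (edgeR's quasi-likelihood test, adjusted p below). Of all tested genes, 57.3% passed in either direction and 27.4% passed as lower in TG, so the number of calls among these genes is given beside a high background. The median log2 fold change of TG over DRG was -0.89 over the 5 genes and 0.01 over all 14554 tested genes. Levels are given as CPM, the reads of a gene relative to all reads in genes of its library, scaled by TMM factors. In whole tissue, fewer cells that express a gene and less RNA per cell cannot be told apart.

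Cd74 was at 27.7 to 78.9 CPM in TG, with a median of 43.0 CPM, and at 64.4 to 119 CPM in DRG, with a median of 94.2 CPM. The lowest library of each ganglion was that of rat R101 and the highest that of rat R102, and the ranges overlapped, since TG of R102 lay above DRG of R101 and R103. The group means were 49.0 ± 18.4 CPM for TG and 91.1 ± 19.6 CPM for DRG (SD, n = 6). The log2 fold change was -0.89 ± 0.24 (SE), with a 95% interval of -1.44 to -0.35 and an adjusted p of 0.0092 (edgeR), which corresponds to 1.86-fold more in DRG.

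RT1-Da, the alpha chain of RT1.D, followed the same pattern. It was at 12.5 to 29.5 CPM in TG, with a median of 18.1 CPM, and at 27.0 to 48.9 CPM in DRG, with a median of 39.5 CPM. The ranges met only at their ends, where TG of R102 (29.5 CPM) lay above DRG of R101 (28.1 CPM) and R103 (27.0 CPM). The group means were 19.99 ± 6.43 CPM for TG and 37.4 ± 8.47 CPM for DRG (SD, n = 6). The log2 fold change was -0.90 ± 0.22 (SE; 95% interval -1.39 to -0.42; edgeR, adjusted p = 0.0044).

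RT1-Bb, the beta chain of RT1.B, was the only 1 of the 5 genes whose TG and DRG libraries did not overlap. It was at 5.68 to 15.7 CPM in TG, with a median of 11.2 CPM, and at 15.8 to 28.4 CPM in DRG, with a median of 21.8 CPM. No TG library reached the lowest DRG library, a separation in this direction seen for 16.9% of tested genes, although TG of R102 (15.7 CPM) and DRG of R103 (15.8 CPM) lay close together. The group means were 10.6 ± 3.34 CPM for TG and 21.8 ± 5.69 CPM for DRG (SD, n = 6). The log2 fold change was -1.04 ± 0.23 (SE; 95% interval -1.55 to -0.52; edgeR, adjusted p = 0.0025). It was the only 1 of the 5 genes called with an estimate of at least 2-fold lower in TG, as were 3.74% of tested genes, and its interval extended from 1.44-fold to 2.92-fold more in DRG.

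RT1-Ba, the alpha chain that pairs with RT1-Bb, had the smallest estimated difference of the 4 genes. It was at 8.67 to 25.3 CPM in TG, with a median of 14.3 CPM, and at 19.4 to 37.8 CPM in DRG, with a median of 27.8 CPM. TG of R102 (25.3 CPM) and R104 (22.2 CPM) lay within the range of the DRG libraries. The group means were 16.1 ± 6.39 CPM for TG and 27.8 ± 6.57 CPM for DRG (SD, n = 6). The log2 fold change was -0.79 ± 0.26 (SE; 95% interval -1.36 to -0.22; edgeR, adjusted p = 0.021). This call was lost without rat R105 (log2 fold change -0.70, adjusted p = 0.076, edgeR) or without rat R106 (log2 fold change -0.73, adjusted p = 0.077, edgeR).

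Aif1 did not pass the test. It was at 6.97 to 13.3 CPM in TG, with a median of 9.48 CPM, and at 8.50 to 12.7 CPM in DRG, with a median of 9.58 CPM, so the DRG range lay within the TG range. The highest library was that of R104 and the lowest that of R106 in both ganglia. The group means were 9.74 ± 2.44 CPM for TG and 10.0 ± 1.48 CPM for DRG (SD, n = 6). The log2 fold change was -0.04 ± 0.15 (SE; edgeR, adjusted p = 0.84). Its 95% interval of -0.36 to 0.28 allows a DRG level of 0.825 to 1.28 times that in TG, so differences within these bounds were not resolved.

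**Figure D2:**
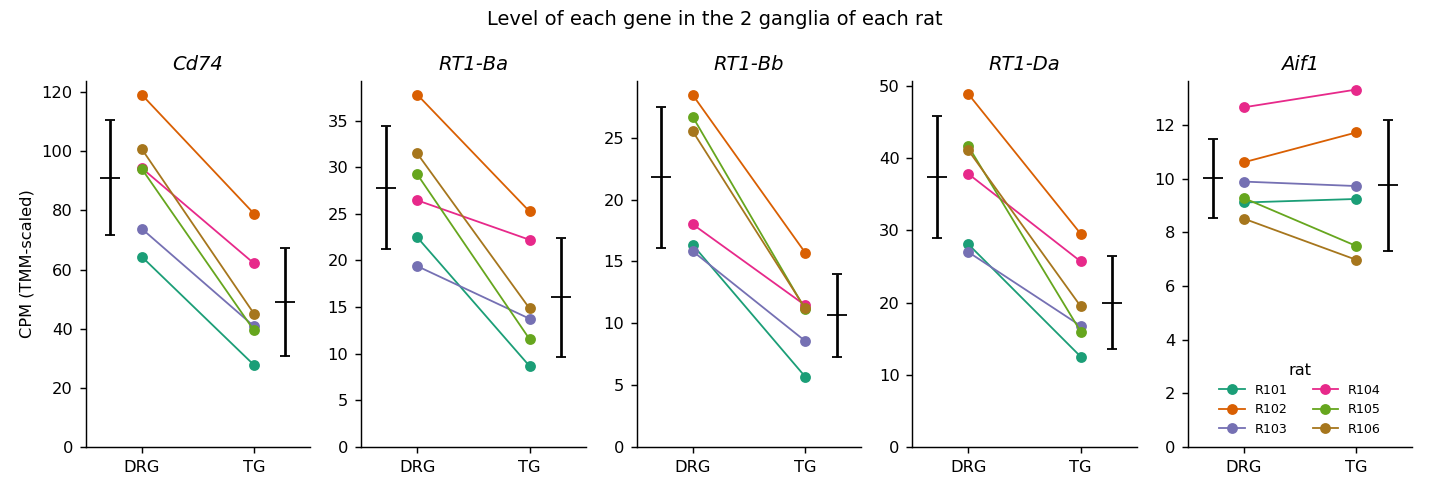
CPM of each gene (linear axis from 0, own scale per panel) in the DRG and TG library of each rat, joined by a line per rat, with the mean and SD of 6 libraries as black bars. Lines of Cd74, RT1-Ba, RT1-Bb and RT1-Da fall from DRG to TG in 6 of 6 rats, while those of Aif1 fall in 3 of 6.

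Taken rat by rat, each of the 4 genes was lower in TG in 6 of 6 rats, as were 25.8% of tested genes. The mean within-rat difference of log2 CPM was -0.95 ± 0.30 for Cd74, -0.93 ± 0.32 for RT1-Da, -1.05 ± 0.31 for RT1-Bb and -0.85 ± 0.47 for RT1-Ba (SD, n = 6 rats). Flipping the signs of these differences gave an exact two-sided p of 0.031 for each, the smallest that 6 rats allow. For Aif1 the mean difference was -0.06 ± 0.19, with TG lower in 3 rats (exact sign-flip p = 0.44).

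The size of the difference varied between rats and was larger in the same 3 rats for each of the 4 genes. Over these genes, DRG held 2.24 to 2.87 times the TG level in R101, 2.39 to 2.61 times in R105 and 2.11 to 2.28 times in R106. It held 1.496 to 1.81 times the TG level in R102, 1.41 to 1.85 times in R103 and 1.19 to 1.57 times in R104. The lowest value of each of the first 3 rats therefore lay above the highest value of each of the other 3. The 4 genes varied together between libraries, as given below, so their agreement is not 4 separate observations. This grouping of rats was not tested. Aif1 had its lowest TG to DRG differences in R105 and R106 (log2 difference -0.30 and -0.28), while the other 4 rats lay between -0.02 and 0.14.

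**Figure D3:**
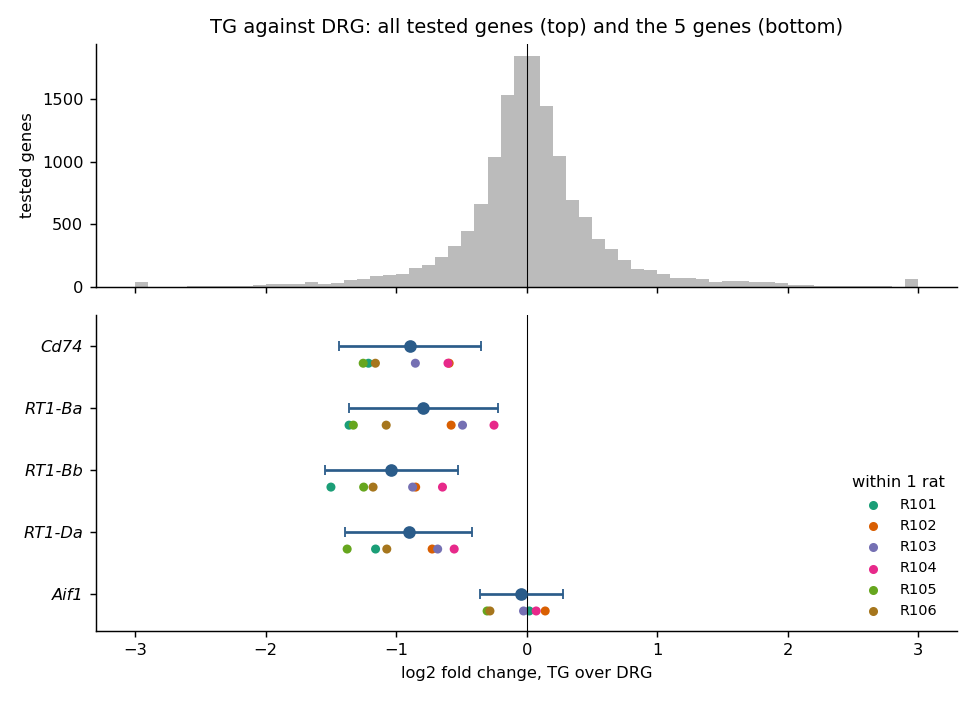
Top, number of tested genes by log2 fold change of TG over DRG (bins of 0.1, end bins collecting values beyond 3 in either direction). Bottom, the 5 genes with the edgeR estimate and 95% interval (blue) and the difference within each rat (coloured dots): the 4 class II genes lie between -1.04 and -0.79, and Aif1 at -0.04.

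The class II genes were lower in TG relative to Aif1 in the same library, a comparison that does not depend on how libraries are scaled. No difference was found for Aif1, so these ratios largely restate the fold changes above, and all 4 share 1 denominator. The share of tested genes that are lower in TG relative to Aif1 was not counted. In DRG the log2 ratio of Cd74 reads to Aif1 reads was 3.17 ± 0.33 and in TG it was 2.28 ± 0.43 (SD, n = 6). It was lower in TG by a log2 difference of -0.88, in 6 of 6 rats (exact permutation test of 6 against 6 libraries, two-sided p = 0.0022, the smallest possible, adjusted p = 0.022 over the 10 pairs of genes). The ratio to Aif1 differed by -0.87 for RT1-Da (exact p = 0.0043, adjusted 0.022), by -0.99 for RT1-Bb (exact p = 0.011, adjusted 0.032) and by -0.79 for RT1-Ba (exact p = 0.013, adjusted 0.032). Each was lower in TG in 6 of 6 rats, and with any 1 rat or library left out the 4 exact p-values stayed at or under 0.048. Each is a ratio of reads, not of molecules, since gene length was not taken into account.

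Ratios among the 4 class II genes differed less in size between ganglia than those to Aif1, and the unpaired and paired tests gave different answers for 1 pair. The 6 pairs had log2 differences of -0.13 to 0.20 between TG and DRG, and none (0) passed the exact permutation test (unadjusted p from 0.18 to 0.76, adjusted over the 10 pairs 0.33 to 0.76). For Cd74 and RT1-Da, the mean log2 ratio was 1.27 ± 0.092 in TG and 1.29 ± 0.098 in DRG (SD, n = 6). Cd74 relative to RT1-Bb was higher in TG in 6 of 6 rats by a log2 difference of 0.11 ± 0.13 (SD; exact sign-flip p = 0.031, the smallest possible and not adjusted over the pairs; exact permutation p without pairing 0.40). The other 5 pairs had exact sign-flip p-values of 0.062 to 0.75.

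The spread between libraries of a ganglion was large for these genes. From the lowest to the highest TG library, levels rose 2.85-fold for Cd74, 2.91-fold for RT1-Ba, 2.76-fold for RT1-Bb and 2.36-fold for RT1-Da, against 1.91-fold for Aif1. In DRG the corresponding values were 1.85-fold, 1.95-fold, 1.80-fold and 1.81-fold, against 1.49-fold for Aif1. TG spread more than DRG for each of the 5 genes, a difference that was not tested. For RT1-Bb this order rests on TG of R101, without which its SD of log2 CPM in TG was 0.30, below the 0.38 of DRG (0.37 without R101 there).

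On the log2 scale, the SD of Cd74 over 6 libraries was 0.53 in TG and 0.32 in DRG. Of genes with a mean within 0.5 log2 units of Cd74, 99.3% had a smaller SD in TG and 99.7% in DRG, their median SD being 0.083 and 0.066. For RT1-Ba, RT1-Bb and RT1-Da the SDs were 0.57, 0.49 and 0.46 in TG and 0.34, 0.38 and 0.34 in DRG, larger than in 96.5% to 98.9% of genes of similar level. Aif1 had an SD of 0.36 in TG, larger than in 92.4% of genes of similar level, and 0.20 in DRG, larger than in 77.8%. Single libraries weighed on 2 of these SDs and on the shares given with them, since that of RT1-Bb in TG fell to 0.30 without R101 and that of Aif1 in DRG to 0.12 without R104.

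Counting error was a small part of this spread for the class II genes. Cd74 had 390 to 1697 reads per library, RT1-Da 176 to 701, RT1-Ba 122 to 538 and RT1-Bb 80 to 449. For Cd74 the coefficient of variation was 37.6% in TG and 21.5% in DRG, while counting alone gives 3.85% and 2.72%. Aif1 had 90 to 199 reads per library, and its coefficients of variation of 25.0% in TG and 14.8% in DRG compare with 8.65% and 8.19% from counting alone.

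The class II genes rose and fell together from animal to animal. In TG, the 6 pairs among Cd74, RT1-Ba, RT1-Bb and RT1-Da had Pearson correlations of log2 CPM of 0.85 to 0.99 and Spearman correlations of 0.94 to 1 over 6 libraries. All 6 passed an exact permutation test adjusted over the 20 relations computed (Pearson, unadjusted p from 0.0014 to 0.029, adjusted 0.0069 to 0.049; Spearman, adjusted p from 0.014 to 0.037). In DRG the 6 Pearson correlations were 0.85 to 0.97 (exact p from 0.0014 to 0.017, adjusted 0.0069 to 0.033), and the Spearman correlations 0.77 to 1, of which 3 passed. Libraries of a ganglion are scaled by the same procedure and depth differs between them, which every pair shares. How many other pairs of genes reach such correlations over 6 libraries was not counted.

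Some of these relations rested on few animals. With the 2 TG libraries farthest from the median left out (R101 and R102), Cd74 and RT1-Da still had a Pearson correlation of 0.99 and Cd74 and RT1-Ba one of 0.98. The 3 TG pairs that include RT1-Bb fell to 0.31 to 0.49 over the remaining 4 libraries, so their relation rests on R101 and R102. In DRG, leaving out the 2 farthest libraries gave 0.58 (Cd74 and RT1-Bb) to 0.95 (Cd74 and RT1-Ba).

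Aif1 was not shown to follow the class II genes. Its 4 Pearson correlations with them lay between 0.22 and 0.64 in TG and between -0.22 and 0.25 in DRG (exact permutation p from 0.17 to 0.96, adjusted 0.26 to 0.96). Spearman correlations with Aif1 lay between 0.43 and 0.54 in TG and between -0.03 and 0.26 in DRG (exact p from 0.30 to 1). With the 2 farthest libraries left out, the Pearson correlations lay between -0.07 and 0.81 in TG and between -0.47 and -0.02 in DRG. In DRG, for example, R106 had the lowest Aif1 level and the second highest Cd74 level.

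**Figure D4:**
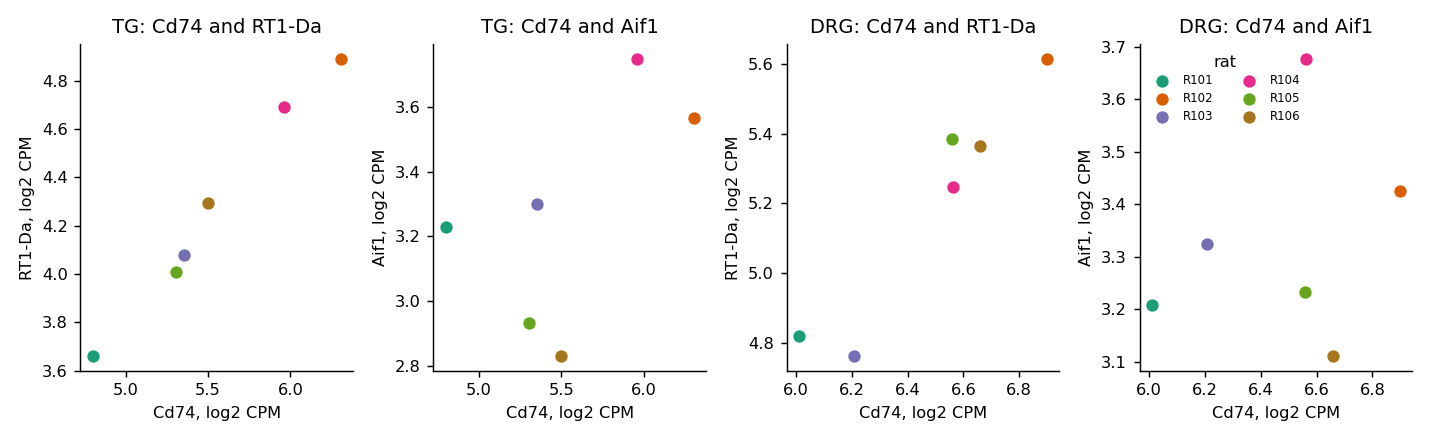
Log2 CPM of Cd74 against RT1-Da and against Aif1 in the 6 TG libraries (left pair) and the 6 DRG libraries (right pair), 1 dot per rat. Cd74 and RT1-Da lie close to a line in TG (r = 0.99) and DRG (r = 0.96), and Cd74 and Aif1 are scattered (r = 0.59 and 0.25).

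Part of the spread was common to the 2 ganglia of a rat. In a fit with rat and tissue, RT1-Bb and Aif1 depended on the rat (edgeR's quasi-likelihood F test, adjusted p = 0.015 and 0.039), as did 3.66% of tested genes. RT1-Da, Cd74 and RT1-Ba did not pass (edgeR, adjusted p = 0.10, 0.14 and 0.37). RT1-Bb also passed DESeq2's likelihood ratio test (adjusted p = 0.00041). For Cd74, RT1-Da, RT1-Ba and Aif1 the outcome depended on the tool. DESeq2's test passed Cd74, RT1-Da and RT1-Ba (adjusted p = 1.3e-11, 5.2e-05 and 0.0016) and not Aif1 (adjusted p = 0.38). The share of all tested genes that pass DESeq2's test was not counted. The call for Aif1 was also lost in edgeR without R103, R104 or R106 (adjusted p = 0.057, 0.25 and 0.096), and that of RT1-Da was gained without R104 or R105 (adjusted p = 0.033 and 0.011).

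Aif1 levels in TG and DRG of the same rat had a Pearson correlation of 0.92 over 6 rats (exact permutation p = 0.0056, adjusted 0.028 over 5 genes) and a Spearman correlation of 0.94 (exact p = 0.017, adjusted 0.083). The Pearson correlation was 0.83 with the 2 rats farthest in TG left out (R104 and R106). With 1 rat left out, its unadjusted exact p no longer passed without R104 (0.050) or without R106 (0.058). For Cd74 the values were 0.86 (exact p = 0.029, adjusted 0.067) and 0.89 (exact p = 0.033, adjusted 0.083), and the Pearson correlation fell to 0.34 without R101 and R102, so the relation rests on these animals. RT1-Bb had 0.77 (exact p = 0.040, adjusted 0.067) and 0.71 (exact p = 0.14, adjusted 0.23), and 0.67 without R101 and R102. For RT1-Da (0.71 and 0.49) and RT1-Ba (0.57 and 0.60) neither correlation passed (exact p from 0.12 to 0.36, adjusted 0.15 to 0.36), and the Pearson correlations were 0.22 and -0.0024 without R101 and R102. How many other genes have such same-rat correlations was not counted.

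The ratio of the RT1.B chains had the same rats at its ends in both ganglia, but its relation between ganglia did not pass after adjustment. RT1-Bb reads amounted to 96.4% of RT1-Ba reads in TG of R105 and to 51.6% in TG of R104, with the other 4 rats at 62.2% to 75.4%. In DRG the same rats were at the ends, R105 at 91.3% and R104 at 68.0%, with the others at 72.6% to 81.6%. The log2 ratio of RT1-Ba to RT1-Bb in TG and DRG of a rat had a Pearson correlation of 0.90 (exact permutation p = 0.026, adjusted 0.13 over 10 pairs of genes) and a Spearman correlation of 0.71 (exact p = 0.14, adjusted 0.23). The Pearson correlation fell to 0.33 without R104 and R105, so the relation rests on these animals. The unadjusted exact p rose to 0.050 without R102, 0.10 without R104 and 0.16 without R105. None (0) of the 10 ratios passed this test after adjustment. The RT1 genes belong to a family of similar and polymorphic genes. Reads that aligned to several places were not counted, so the reads of these genes, and the ratio of the chains, carry that uncertainty.

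**Figure D5:**
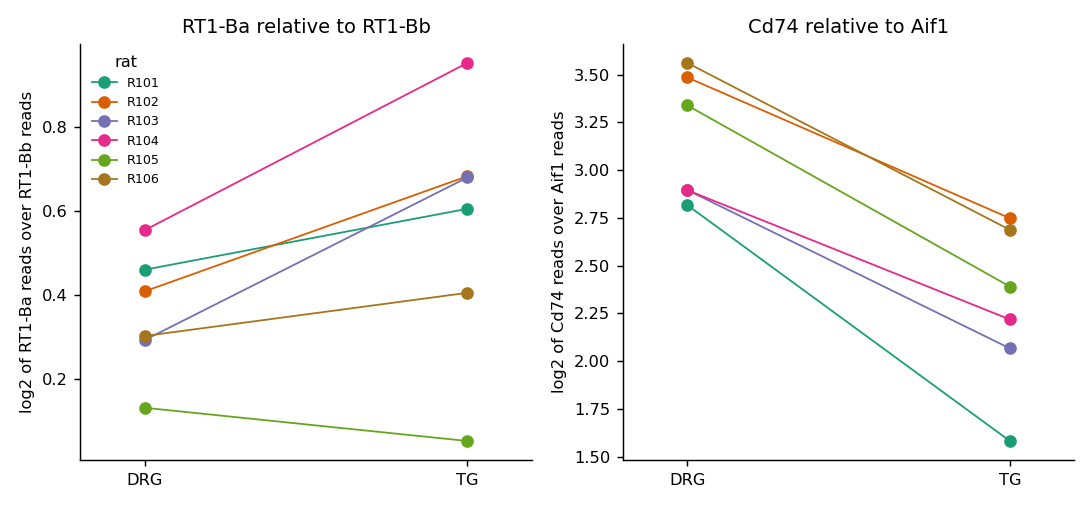
Log2 ratio of reads between pairs of genes in the DRG and TG library of each rat (axes do not start at 0). Left, RT1-Ba over RT1-Bb, with R104 highest and R105 lowest in both ganglia; right, Cd74 over Aif1, lower in TG in 6 of 6 rats.

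Aif1 in TG also moved with another gene of these libraries. ENSRNOG00000031927, known from earlier results of these data as a gene far higher in TG and variable between TG libraries, had 25.9 to 73.3 CPM in TG libraries and 0 to 0.37 CPM in DRG libraries. Over the 6 TG libraries, Aif1 had a Pearson correlation of 0.96 with it (exact permutation p = 0.0097, adjusted 0.049 over 5 genes) and a Spearman correlation of 0.94 (exact p = 0.017, adjusted 0.083), and a Pearson correlation of 0.90 without R105 and R106. The class II genes had Pearson correlations of 0.12 to 0.54 with it (exact p from 0.27 to 0.83, adjusted 0.39 to 0.83) and Spearman correlations of 0.49 to 0.60 (exact p from 0.24 to 0.36, adjusted 0.30 to 0.36). Without R105 and R106 these were 0.94 to 0.98, over 4 libraries. This gene was chosen after the data had been seen, and the adjustment covers only the 5 genes. How many other genes reach such a correlation with Aif1 over 6 libraries was not counted. Whether what ENSRNOG00000031927 measures has a part in the level of Aif1 in TG was not tested.

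Outside the 5 genes, the pattern most like their mean was that of ENSRNOG00000033215. Its log2 CPM, centred on the mean of each ganglion, had a Pearson correlation of 0.97 with the mean of the 5 genes over 12 libraries, the highest of the other genes among 14143 with a mean of at least 1 CPM. Its TG libraries averaged 13.5 ± 4.83 CPM and its DRG libraries 24.9 ± 4.25 CPM (SD, n = 6). In edgeR the log2 fold change was -0.89 ± 0.22 (SE), with an adjusted p of 0.0042. The next gene, ENSRNOG00000015285, had a correlation of 0.92 but no called difference, with 40.5 ± 5.11 CPM in its TG libraries and 36.5 ± 4.36 CPM in those of DRG (SD, n = 6; edgeR, adjusted p = 0.17). A further gene, also with a correlation of 0.92, was called higher in TG (edgeR, log2 fold change 0.27 ± 0.041 (SE), adjusted p = 2.9e-05). Measured against the same mean, of which they are part, RT1-Da, Cd74 and RT1-Ba reached 0.99 each, RT1-Bb 0.88 and Aif1 0.52.

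Libraries held 11876597 to 15144027 counts in genes in TG and 13336016 to 17184211 in DRG. Between the groups, reads outside genes took 20.5% to 21.0% of a TG file and 15.7% to 16.9% of a DRG file, and reads aligned to several places 11.4% to 11.9% of a TG file and 12.3% to 13.2% of a DRG file; their part in the differences was not tested. Markers of neurons, glia, microglia, dendritic cells, B cells and T cells, and the other genes of class II presentation, were not analysed here, because no table used here pairs the identifiers with symbols. The labelled tissues were for the same reason not checked against their markers.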

How the data were processed

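Poly(A)-selected RNA from TG and DRG of 6 rats was sequenced on an Illumina HiSeq instrument, per the labels' protocols. The authors deposited raw read counts per Ensembl gene, made with STAR and HTSeq on Rnor_6.0 per the submitters' processing notes. The sources used here do not give versions, the annotation release or whether counting used strand, and without strand a gene and its antisense partner cannot be told apart. The 5 rows that name no gene (29.8% to 34.3% of the reads of a file) were left out of library sizes and tests. None (0) of the 32662 identifiers was paired with a symbol in the RefSeq table used here, so the gene lists drawn up for pathways and cell types were not used.

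Counts were fitted in R 4.3.3 with edgeR 4.0.16 (filterByExpr, TMM factors, robust quasi-likelihood test, tissue as the only term, Benjamini-Hochberg over all 14554 genes, threshold 0.05). Standard errors were derived from the fold change and its F statistic. Log2 CPM used a prior count of 2, and ratios within a library an offset of 0.5 counts. Both libraries of a number came from 1 animal, which pairs the samples by number: the deviations of a rat's TG and DRG libraries from the group means were correlated (correlations across genes of 0.23 to 0.34, against -0.14 to 0.10 between rats). Single values were compared with exact permutation tests, two-sided. Sign-flip p-values are given without adjustment. Alternatives used DESeq2 1.42.0, limma 3.58.1, other scaling, no filter, and left-out rats or libraries. The scripts were tested on simulated data. Genes made to differ between ganglia there were given less spread between libraries than the class II genes had here. That test therefore does not cover calls of genes this variable. With 1 library per ganglion and animal, p-values of the unpaired tests between ganglia, the main test among them, measure the spread between libraries of a ganglion. These tests leave out the pairing by rat. Sign flips, and the test between ganglia with a term for the rat, measure the spread of differences within rats.

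The 5 genes, the lists and the tests were chosen with earlier results of these data known. Named genes were the 5 members and, by identifier, at most 2 of the 5 genes most correlated with their mean. Ratios between members, their relation between ganglia, the gene ENSRNOG00000031927 and the promoter motifs were added after the data had been seen.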

Additional observations from a re-analysis of the deposited data

Results flagged for a closer look

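Of 30 sets of 6 libraries examined for a library far from the others (10 of log2 CPM and 20 of log2 ratios between 2 of the genes), 1 stood out, and chance gives about 1 in 20. It was the log2 ratio of RT1-Bb to RT1-Da in DRG of rat R104, at -1.07, against -0.78 to -0.64 in the other 5 DRG libraries. In TG the same rat was at -1.16, beside R101 at -1.13, and the other 4 were at -0.97 to -0.52.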

How the results depend on the processing

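The lower level in TG kept its direction for Cd74, RT1-Ba, RT1-Bb and RT1-Da in each of 25 alternatives, with log2 fold changes of -1.09 to -0.78, -0.97 to -0.67, -1.19 to -0.91 and -1.05 to -0.80. Calls of Cd74, RT1-Bb and RT1-Da held in all 25 (highest adjusted p 0.040, 0.013 and 0.024), that of RT1-Ba in 23 (without a rat or library, -0.97 to -0.67). Aif1 was called in none (0) and changed sign in 4 alternatives that left out a library or rat (-0.15 to 0.037 over all that did). With a term for the rat, the replicate block gave log2 fold changes of -0.93, -0.83, -1.05, -0.92 and -0.05 for Cd74, RT1-Ba, RT1-Bb, RT1-Da and Aif1 and changed no call. The numbers of tested genes lower and higher in TG were 3987 and 4354, and 3443 and 4960 with library totals only, 4150 and 4181 with DESeq2 size factors in edgeR; scaling moved the median of all genes by at most 0.04. Adjusted p-values for the rat effect with DESeq2's likelihood ratio test were 1.3e-11 (Cd74), 0.0016 (RT1-Ba), 0.00041 (RT1-Bb), 5.2e-05 (RT1-Da) and 0.38 (Aif1). The rat call of RT1-Bb held in all 12 alternatives (highest adjusted p 0.0498, edgeR without R103). In edgeR without a rat, adjusted p-values were 0.030 to 0.25 for Aif1 and 0.011 to 0.26 for RT1-Da. The cause of these changes was not tested. The SD of log2 CPM of RT1-Bb in TG (0.30 to 0.54 with a library left out) depended on R101, and that of Aif1 in DRG (0.12 to 0.22) on R104. Same-rat correlations without a rat were 0.72 to 0.91 for Cd74, 0.65 to 0.87 for RT1-Bb, 0.89 to 0.95 for Aif1, 0.25 to 0.69 for RT1-Ba (lowest without R102) and 0.52 to 0.85 for RT1-Da, and 0.75 to 0.98 for the ratio of RT1-Ba to RT1-Bb. The unadjusted exact p no longer passed in 4 of 6 such cases for Cd74, 5 of 6 for RT1-Bb, 2 of 6 for Aif1 and 3 of 6 for the ratio, and did not pass in any for RT1-Ba and RT1-Da. Alternatives for this ratio, for ratios to Aif1 and for ENSRNOG00000031927 were chosen after seeing the data. The lowest count was 80 reads, for RT1-Bb in TG of R101, and counting error averaged over TG libraries was 8.65% for Aif1 and 8.27% for RT1-Bb.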
